A study of Mus musculus with 12 samples.

Results

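The genes described here encode enzymes and membrane proteins of the lysosome, and they were followed in the striatum of 12 mice measured on whole-genome Affymetrix mouse arrays, with 1 array per mouse. The list named 39 genes, and 38 of them had a probe set paired with that gene alone, out of 18193 such genes on the array. Cd63 was not analysed here. Where a gene had several probe sets, the one with the highest mean over the 12 arrays stood for it. Mice of 2 genotypes, all labelled C57BL/6, were sampled at 2 ages. Wild-type mice were compared with HdhQ92/Q92 mice, in which 92 CAG repeats from the human HD gene sit in the mouse's own Htt gene. Each of the 4 groups (wt_3m, Q92_3m, wt_18m and Q92_18m) held 3 mice. The young mice were 100 to 103 days old, the old wild-type mice 596 to 604 days and the old Q92 mice 567 to 596 days. The wt_3m group held 1 female and 2 males, and each of the other groups held 2 females and 1 male. Mice are named by group and number. All values are log2 signals, differences are on the log2 scale, and a group value is a mean ± SD with n = 3 mice unless stated.

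Lysosomes are acidic organelles in which proteins, glycans and lipids delivered by endocytosis and autophagy are broken down. Their soluble hydrolases are synthesised in the endoplasmic reticulum and sorted by mannose 6-phosphate receptors, the V-ATPase acidifies the lumen, and LAMP proteins line the membrane. Inherited loss of many of these enzymes causes storage disease with neurodegeneration, and in the brain the pathway is active in neurons and particularly in microglia. The transcription factor TFEB binds a palindromic element in the promoters of many lysosomal genes.

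As lysosomal genes, the members belong to the class named above as often carrying that element, so its share among them is a description only. They were not chosen for that element. Its 8-letter core, GTCACGTG, and the full palindrome, which is that core followed by AC, were searched on both strands of the RefSeq promoter windows (GRCm38.p6, 250 bases before to 50 after each gene's start). Of the 39 members, 35 had a promoter entry, and 10 of these 35 (28.6%) held the core. Among all 27025 genes with an entry, 689 (2.55%) held it, as did 9 of 51 other lysosomal genes (17.6%). Over single promoter windows the share was 2.25% of 32851. The full palindrome was present in 1 member, Cln3, and in 0.370% of all genes. The shorter palindrome CACGTG, which lies within both, was present in 13 of the 35 members and 8.09% of all genes. No entry was used for Ctsb, Ctsh, Asah1 and Npc1. The 10 stretches below show the core in capitals with up to 20 bases on either side, 5′ to 3′ on the gene's strand. They are shown because they are what these 10 promoters have in common. The other 25 do not hold the core in these windows.
Ctsa (chr2:164833739-164833786, plus strand): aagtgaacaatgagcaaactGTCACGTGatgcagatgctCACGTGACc
Ctsd (chr7:142388045-142388077, minus strand): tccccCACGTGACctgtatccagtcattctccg
Gla (chrX:134601174-134601221, minus strand): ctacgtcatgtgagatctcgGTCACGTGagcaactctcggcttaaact
Glb1 (chr9:114401008-114401055, plus strand): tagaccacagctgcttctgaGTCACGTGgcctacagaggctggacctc
Naglu (chr11:101069999-101070046, plus strand): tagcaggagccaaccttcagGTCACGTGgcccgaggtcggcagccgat
Arsa (chr15:89477415-89477462, minus strand): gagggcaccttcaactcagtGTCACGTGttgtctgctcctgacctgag
Sgsh (chr11:119355512-119355559, minus strand): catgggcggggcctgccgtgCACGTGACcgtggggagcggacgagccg
Lamp1 (chr8:13159113-13159160, plus strand): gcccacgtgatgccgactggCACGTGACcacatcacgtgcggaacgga
Mcoln1 (chr8:3500426-3500473, plus strand): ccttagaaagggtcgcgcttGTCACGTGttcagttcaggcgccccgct
Cln3 (chr7:126583330-126583379, minus strand): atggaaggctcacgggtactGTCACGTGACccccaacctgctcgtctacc
Counting both strands, Ctsa, Ctsd, Mcoln1 and Cln3 each held 2 matches, which in Cln3 overlap to form the full palindrome. Relative to the gene's start, the capitals shown begin at position -14 in Ctsa, the nearest, and at -245 in Ctsd, the farthest. A match is a description of letters, not a site or a cause.

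Ctsz and Man2b1, the 2 genes that passed the test between the ages over both genotypes, had no CACGTG in their windows, which says only that these letters are not in these windows. Their windows are printed because these are the 2 genes that passed, with the 50 bases from the gene's start onwards in capitals. Any part of the windows in the age result was not tested.
Ctsz (chr2:174438990-174439289, minus strand): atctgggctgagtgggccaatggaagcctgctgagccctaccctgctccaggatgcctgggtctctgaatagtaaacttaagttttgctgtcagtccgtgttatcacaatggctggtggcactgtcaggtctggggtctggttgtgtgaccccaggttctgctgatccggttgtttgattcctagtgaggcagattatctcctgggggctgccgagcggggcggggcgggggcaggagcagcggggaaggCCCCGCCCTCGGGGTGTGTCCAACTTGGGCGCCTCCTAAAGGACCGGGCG
Man2b1 (chr8:85083019-85083318, plus strand): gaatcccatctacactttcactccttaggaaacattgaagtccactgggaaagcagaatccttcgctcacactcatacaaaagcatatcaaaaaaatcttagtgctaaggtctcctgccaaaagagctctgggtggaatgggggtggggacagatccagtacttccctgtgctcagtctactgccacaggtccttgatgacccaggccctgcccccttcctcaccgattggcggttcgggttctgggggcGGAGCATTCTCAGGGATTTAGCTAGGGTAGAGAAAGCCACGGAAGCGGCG

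The mean correlation of an array with the others was 0.987 to 0.992, and the beta-actin 3′ minus 5′ control difference was 0.70 to 0.99 with overlapping groups. The same control difference for Gapdh was -0.074 to -0.036 in wt_3m and -0.030 to 0.003 in wt_18m mice, which do not overlap, and -0.072 to -0.005 in Q92_3m and -0.049 to 0.070 in Q92_18m mice, which do. Its part in the age differences was not tested. The 18S ribosomal RNA control ran from 5.28 to 11.18 over the 12 arrays, and at 18 months it was 6.21 to 8.31 in Q92 and 5.64 to 5.75 in wild-type mice. Projection neuron markers were present, with Drd1 at 9.22 to 10.65 and Ppp1r1b at 9.49 to 11.27, and the mean of the 9 measured was 10.44 to 10.89 in all mice but the old Q92 mice, where it was 9.37 to 10.02. Penk read 11.63 ± 0.06 in wt_18m and 10.37 ± 0.20 in Q92_18m mice. Choroid plexus markers averaged 7.97 in Q92_3m_439 and 7.79 in wt_18m_12 and no more than 6.57 elsewhere, and cortical markers averaged 7.99 in Q92_18m_11, 7.94 in Q92_18m_25 and 6.57 in Q92_18m_66. The Htt probe set read 7.75 ± 0.06 in wt_18m and 7.85 ± 0.14 in Q92_18m mice (log2 difference 0.10, limma adjusted p = 0.883). At 3 months it read 7.76 ± 0.14 in wild-type and 8.06 ± 0.03 in Q92 mice, a log2 difference of 0.30 that did not pass. All Q92 mice were then above all wild-type mice, as in 2.3% of all genes. The labels give no batch.

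The clearest pattern among the lysosomal genes was with age. In wild-type mice 32 of 38 had a higher mean at 18 than at 3 months, with a median difference of 0.18, while the median over all 18193 genes was -0.01. In Q92 mice 29 of 38 were higher, with a median of 0.15 against 0.01 over all genes, and 0.082 without Q92_18m_66. In bulk tissue, a change in the number of cells of a type and a change in RNA per cell cannot be told apart. None of the 38 passed an adjusted p of 0.05 in limma within either genotype, where 0.0715% of genes passed in wild type, all upwards, and 0.264% in Q92, with 0.044% upwards. Over all 45037 probe sets the shares were 0.0511% and 0.206%. An unadjusted p under 0.05 was reached by 13 members in wild type and 9 in Q92, against 11% and 12.4% of all genes. In wild-type mice 17 of the 38 genes (44.7%) had all 3 old mice above all 3 young ones, which 9.76% of all genes did. In Q92 mice 9 of 38 (23.7%) did so, where 10% of all genes did. In both genotypes at once this held for Ctsz, Man2b1 and Lamp2, 3 of 38, against 2.26% of all genes. The lysosomal genes were placed side by side with the rest of the array only as a description, since the list was drawn up with earlier results of these data known.

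**Figure D1:**
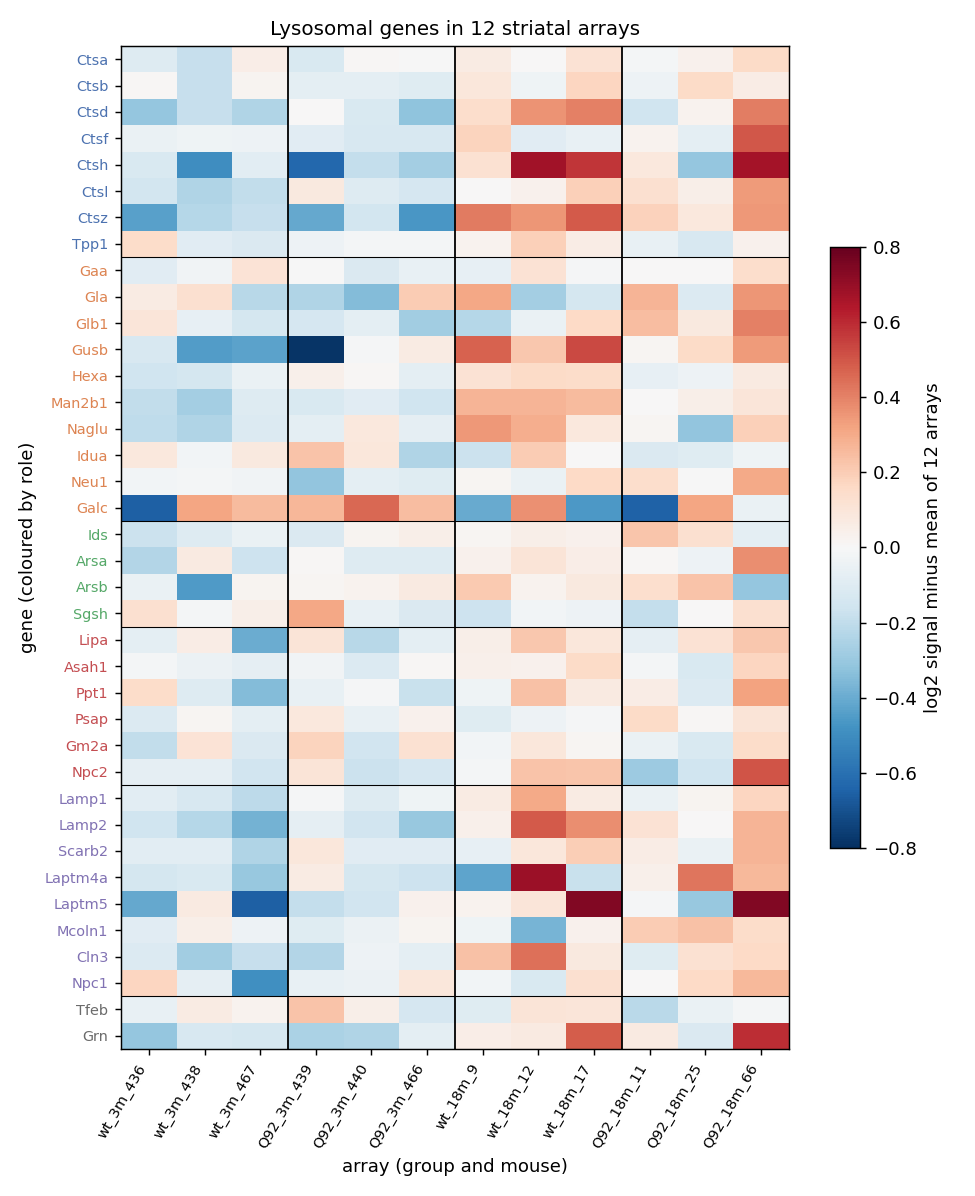
Log2 signal of the 38 lysosomal genes (rows, coloured by role) in the 12 arrays (columns, by group), each minus the gene's mean over the 12 arrays, with the colour scale ending at 0.8 in either direction. The old mice are mostly above the mean and the young mice below it, and Q92_18m_66 has the highest mean over the 38 genes (8.26).

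To use all 12 mice, the age difference was also averaged over both genotypes, 6 mice against 6, a comparison added after the data had been seen. Here 34 of 38 genes were higher at 18 months (median 0.17, against -0.00 over all genes), and 2 of 38 passed in limma, Ctsz and Man2b1, both upwards, where 0.39% of all genes passed upwards and 0.572% in either direction. Of the 92 probe sets of the members, 7 passed, all upwards, against 0.444% of all probe sets in either direction. They were the 3 of Ctsz, 1 of 2 of Man2b1, 2 of 4 of Lamp2 and 1 of 3 of Grn. Among the 28 members with several probe sets, 18 had estimates of both signs over both genotypes, 14 in wild type and 16 in Q92 mice. The counts of members higher or lower refer to the brightest probe set only.

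Among the members by role, all 8 proteases were higher at 18 months over both genotypes, by a median of 0.20. Ctsz encodes cathepsin Z, a cysteine carboxypeptidase abundant in microglia. It read 8.56, 8.76 and 8.81 in wt_3m and 8.58, 8.84 and 8.53 in Q92_3m mice. At 18 months it read 9.41, 9.34 and 9.48 in wild-type and 9.17, 9.08 and 9.34 in Q92 mice. Every old mouse was above every young mouse of either genotype. Over both genotypes Ctsz rose 1.54-fold (log2 difference 0.62, SE 0.08, limma adjusted p = 0.0115, higher in 6 of 6 old mice). Within genotypes the difference was 0.70 in wild type (SE 0.11, adjusted p = 0.0563) and 0.55 in Q92 mice (SE 0.11, adjusted p = 0.0886). All 3 of its probe sets passed over both genotypes, the dimmer ones with differences of 0.51 (adjusted p = 0.0417) and 0.74 (adjusted p = 0.0297).

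Ctsd, the main aspartic protease of lysosomes, read 9.36, 9.48 and 9.43 in wt_3m and 9.81, 10.03 and 10.07 in wt_18m mice, groups that do not overlap. In Q92 mice it read 9.67, 9.54 and 9.35 at 3 months and 9.51, 9.69 and 10.07 at 18 months, which overlap. Its age difference was 0.55 in wild type (adjusted p = 0.236), 0.24 in Q92 (adjusted p = 0.593) and 0.39 over both (SE 0.10, adjusted p = 0.100). Ctsh, an aminopeptidase, read 6.34, 5.96 and 6.37 in wt_3m, 6.58, 7.13 and 7.02 in wt_18m, 5.83, 6.26 and 6.18 in Q92_3m and 6.54, 6.14 and 7.12 in Q92_18m mice. Its difference was 0.69 in wild type (adjusted p = 0.338) and 0.51 in Q92 (adjusted p = 0.451), and the latter was 0.25 without Q92_18m_66. Ctsl, a broad cysteine protease, read 9.50, 9.40 and 9.45 in wt_3m, 9.65, 9.68 and 9.84 in wt_18m, 9.72, 9.54 and 9.51 in Q92_3m and 9.77, 9.69 and 9.99 in Q92_18m mice. Its difference over both genotypes was 0.25 (adjusted p = 0.143). The other 4 proteases differed by 0.04 (Tpp1) to 0.16 (Ctsf), with Ctsa at 0.12 and Ctsb at 0.13.

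Among the 10 glycosidases, which cut sugars from glycoproteins, glycolipids and glycosaminoglycans, 8 were higher at 18 months over both genotypes. Man2b1 encodes the lysosomal alpha-mannosidase. It read 8.33, 8.25 and 8.43 in wt_3m and 8.80, 8.80 and 8.78 in wt_18m mice. In Q92 mice it read 8.40, 8.44 and 8.37 at 3 months and 8.53, 8.57 and 8.62 at 18 months. The old mice of each genotype were above all the young ones, and the old wild-type mice were the highest. Over both genotypes Man2b1 rose 1.24-fold (log2 difference 0.31, SE 0.06, limma adjusted p = 0.0372, higher in 6 of 6 old mice). Leaving out any 1 mouse other than wt_3m_467 ended this call, with adjusted p-values of 0.0595 to 0.0848. Its dimmer probe set differed by -0.02 (adjusted p = 0.950).

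Gusb, the beta-glucuronidase of glycosaminoglycan breakdown, had the widest age difference in wild type among the members' brightest probe sets. It read 4.99, 4.67 and 4.69 in wt_3m, 5.60, 5.34 and 5.65 in wt_18m, 4.34, 5.11 and 5.19 in Q92_3m and 5.14, 5.27 and 5.46 in Q92_18m mice. The wild-type ages do not overlap and the Q92 ages do. The difference was 0.74 in wild type (SE 0.19, adjusted p = 0.248), 0.41 in Q92 (adjusted p = 0.482) and 0.58 over both (adjusted p = 0.0867, or 0.0272 with its probe sets averaged). The other Gusb probe set, of similar brightness (mean 5.08 against 5.12), had the larger difference in Q92 mice. It differed by 0.38 in wild type (adjusted p = 0.443) and 0.68 in Q92 (adjusted p = 0.125). Glb1, the beta-galactosidase, read 6.61, 6.45 and 6.37 in wt_3m, 6.29, 6.46 and 6.68 in wt_18m, 6.38, 6.43 and 6.23 in Q92_3m and 6.76, 6.59 and 6.92 in Q92_18m mice. All old Q92 mice were above all young Q92 mice, while the wild-type ages were mixed. Its age difference was 0.41 in Q92 (SE 0.12, adjusted p = 0.231) and -0.00 in wild type (adjusted p = 0.995). Neu1, a sialidase, read 6.73, 6.97 and 6.95 in Q92_3m and 7.19, 7.04 and 7.35 in Q92_18m mice, a difference of 0.31 (adjusted p = 0.290) that was 0.14 when the gene's probe sets were averaged. In wild type it read 7.03, 7.03 and 7.02 at 3 months and 7.06, 6.99 and 7.20 at 18 months.

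Naglu and Hexa, enzymes of heparan sulfate and ganglioside breakdown, separated the ages in wild-type mice and not in Q92 mice. Naglu read 4.71, 4.68 and 4.81 in wt_3m, 5.27, 5.21 and 5.00 in wt_18m, 4.84, 5.00 and 4.85 in Q92_3m and 4.93, 4.60 and 5.11 in Q92_18m mice, with age differences of 0.43 (adjusted p = 0.291) and -0.02 (adjusted p = 0.980). Hexa read 8.67, 8.69 and 8.78 in wt_3m, 8.95, 8.98 and 8.98 in wt_18m, 8.88, 8.84 and 8.75 in Q92_3m and 8.76, 8.79 and 8.90 in Q92_18m mice, with age differences of 0.26 (adjusted p = 0.322) and -0.00 (adjusted p = 0.992). Of the remaining glycosidases, Gla and Gaa differed by 0.14 and 0.06 over both genotypes, Idua by -0.07 and Galc by -0.29. Galc, the galactosylceramidase that acts on myelin lipid, was the member with the most negative age difference, and its arrays were scattered, from 6.21 (wt_3m_436 and Q92_18m_11) to 7.32 (Q92_3m_440).

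Of the 8 membrane proteins measured, all were higher at 18 months over both genotypes, by a median of 0.23, and none passed with its brightest probe set. Lamp2, a LAMP that also serves chaperone-mediated autophagy, read 8.05, 7.98 and 7.83 in wt_3m and 8.25, 8.70 and 8.58 in wt_18m mice. In Q92 mice it read 8.14, 8.05 and 7.90 at 3 months and 8.32, 8.21 and 8.48 at 18 months. Every old mouse was above every young one, an ordering over 6 against 6 mice that was seen upwards in 3 of the 38 members (Ctsz, Man2b1 and Lamp2) and in 1.36% of all genes. The age difference of Lamp2 was 0.56 in wild type (SE 0.13, adjusted p = 0.182), 0.31 in Q92 (adjusted p = 0.408) and 0.43 over both (SE 0.09, adjusted p = 0.0563), and it passed in 7 of 23 alternatives (lowest adjusted p = 0.0310). Its other probe sets differed by 0.43, 0.48 and 0.64 over both genotypes (adjusted p = 0.0493, 0.148 and 0.0294).

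Cln3, the membrane protein lost in juvenile Batten disease, read 5.39, 5.22 and 5.31 in wt_3m and 5.74, 5.94 and 5.58 in wt_18m mice, which do not overlap. It read 5.27, 5.46 and 5.42 in Q92_3m and 5.40, 5.63 and 5.66 in Q92_18m mice, which do. The difference was 0.44 in wild type (adjusted p = 0.236), and 0.17 when its probe sets were averaged. Laptm5, a lysosomal protein of blood-derived and microglial cells, read 6.59, 7.07 and 6.34 in wt_3m and 7.03, 7.09 and 7.74 in wt_18m mice, and its 5 probe sets disagreed in sign over both genotypes, from -0.14 to 0.43. Lamp1 differed by 0.19 over both genotypes, Laptm4a by 0.27, Scarb2 by 0.17, the cholesterol exporter Npc1 by 0.13 and the calcium channel Mcoln1 by 0.07.

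The 6 lipid-handling enzymes and activators were all higher over both genotypes, with Lipa, the acid lipase, at 0.20, Ppt1 at 0.18, Npc2 at 0.16, Asah1 at 0.09, Psap at 0.04 and Gm2a at 0.02. Of the 4 sulfatases, Arsa differed by 0.18, Arsb and Ids each by 0.12 and Sgsh by -0.10. None of these 10 passed. Sgsh was the 1 member with all old wild-type mice below all young ones, which 8.81% of all genes were. In Q92 mice no member had all old mice below all young ones (7.52% of all genes). Grn, the secreted growth factor progranulin that is processed in lysosomes, read 8.25, 8.43 and 8.42 in wt_3m, 8.62, 8.63 and 9.05 in wt_18m, 8.31, 8.32 and 8.49 in Q92_3m and 8.63, 8.45 and 9.15 in Q92_18m mice. Its difference was 0.38 over both genotypes (adjusted p = 0.162), and 1 of its dimmer probe sets rose by 0.46 (adjusted p = 0.0355). The Tfeb transcript differed by -0.06 (adjusted p = 0.728). Its 12 arrays ran from 6.00 to 6.45, with every group overlapping the others.

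**Figure D2:**
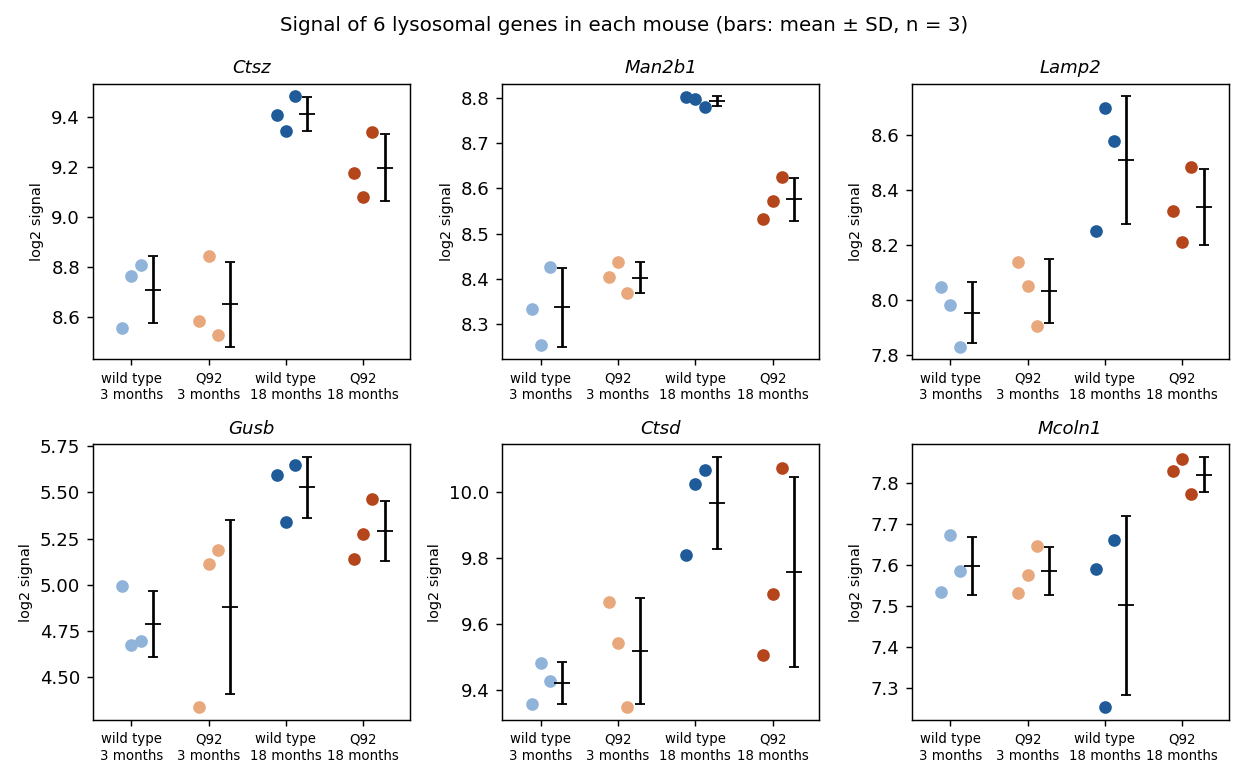
Log2 signal of Ctsz, Man2b1, Lamp2, Gusb, Ctsd and Mcoln1 by group, each point being 1 mouse, with the group mean as a dash and the SD as error bars (n = 3). In Ctsz, Man2b1 and Lamp2 every 18-month mouse is above every 3-month mouse, and in Mcoln1 the 3 old Q92 mice are above the 3 old wild-type mice.

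Some markers of other cells also differed between the ages, and others did not. Over the 6 mice of each age, the oligodendrocyte list averaged 10.24 at 3 and 10.19 at 18 months. The vascular list averaged 7.25 and 7.20. The 13 microglial markers that are not lysosomal genes averaged 7.00 to 7.16 in wt_3m, 7.16 to 7.25 in Q92_3m, 7.49 to 7.93 in wt_18m and 7.14 to 7.86 in Q92_18m mice. In wild type 12 of the 13 were higher at 18 months (median 0.52), and in Q92 mice 7 of 13 (median 0.07). Of their defining genes, Csf1r read 9.87 to 10.63, Aif1 5.56 to 7.08 and P2ry12 7.29 to 7.79. With age Csf1r differed by 0.10 in wild type and -0.08 in Q92 mice, and P2ry12 by -0.04 and -0.08. Aif1 differed by 0.85 in wild type (limma adjusted p = 0.251) and 0.68 in Q92 mice (adjusted p = 0.287). Gfap, the astrocyte filament gene, read 6.67 ± 0.46 in wt_3m and 8.54 ± 0.13 in wt_18m mice and rose with age in wild type (limma adjusted p = 0.0304). In Q92 mice it read 6.94 ± 0.20 at 3 months and 7.97 ± 0.58 at 18 months, which did not pass (adjusted p = 0.160). Over both genotypes Gfap rose by 1.44 (adjusted p = 0.0124), with every old mouse above every young one. The astrocyte list as a whole did not follow it, with 7 of 10 markers higher at 18 months in wild type (median 0.11), 2 of 10 in Q92 mice (median -0.12) and 5 of 10 over both genotypes (median 0.01). All 9 projection neuron markers were lower at 18 than at 3 months in Q92 mice (median -1.004, 3 passed), and 6 of 9 in wild type (median -0.06). The mouse with the highest mean of the 38 lysosomal genes, Q92_18m_66 (8.26), had the highest microglial mean of its group (7.86). In its group wt_18m_17 was the highest in microglial markers (7.93), with a lysosomal mean of 8.17. The lysosomal mean was also 8.17 in wt_18m_12, where the microglial markers averaged 7.57. With Q92_18m_66 and wt_18m_17 both left out, the difference over both genotypes was 0.30 for Man2b1, which did not pass (limma adjusted p = 0.125). For Ctsz, which rose, it was 0.57 (adjusted p = 0.0417). The markers' part in the age differences was not tested.

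**Figure D3:**
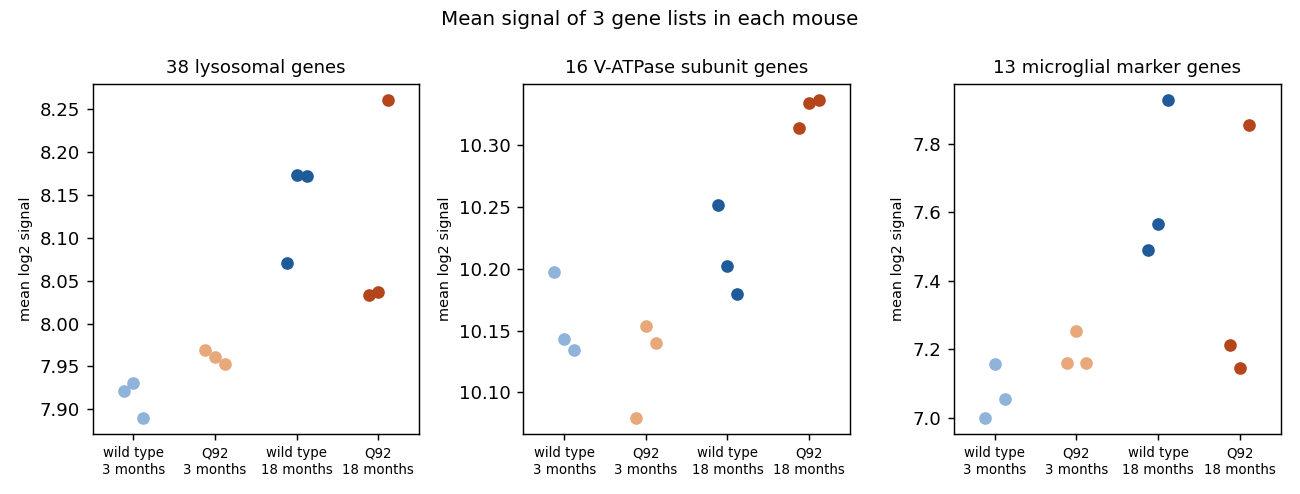
Mean log2 signal over 38 lysosomal genes, 16 V-ATPase genes and 13 microglial markers in each mouse, by group, each point being 1 mouse. The lysosomal mean of every 18-month mouse (8.03 to 8.26) is above that of every 3-month mouse (7.89 to 7.97), and the microglial mean varies most among the old Q92 mice.

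The age differences in wild-type and Q92 mice share no arrays. Of the 38 lysosomal genes 26 (68.4%) were higher at 18 months in both genotypes and 3 lower in both, while 30.9% of all genes were higher in both. Across the 38 genes, which are not independent replicates, the differences in the 2 genotypes correlated with r = 0.57, and across all 18193 genes with r = 0.38. Members with the core element in the promoter had a median age difference over both genotypes of 0.18 (10 genes) and those without it 0.17 (24 genes).

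**Figure D4:**
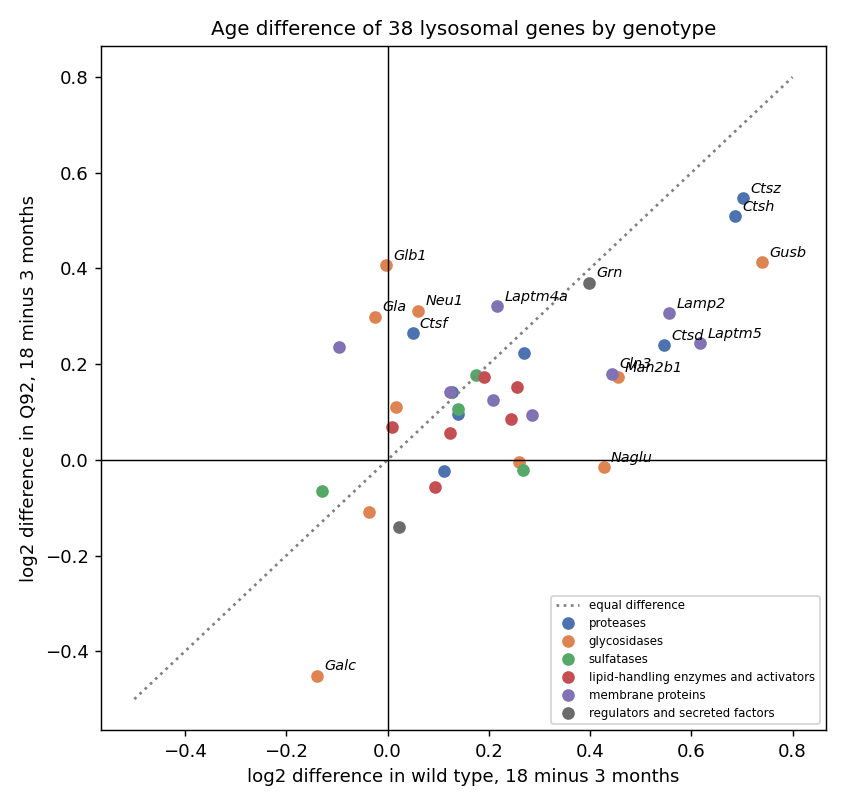
Age difference (18 minus 3 months, log2) in Q92 mice against that in wild-type mice, 1 point per lysosomal gene (38), coloured by role. Most points (26) lie in the quadrant where both differences are above 0, and Galc (-0.14 in wild type, -0.45 in Q92) is the farthest below.

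At 18 months the comparison of Q92 with wild-type mice gave no lysosomal gene that passed. None of the 38 did so in limma, where 0.077% of all genes and 0.0533% of all probe sets did, and 4 had an unadjusted p under 0.05, where 8.03% of all genes did. The signs were divided, with 16 genes higher and 22 lower in Q92 mice and a median of -0.03, against -0.00 over all genes. Differences ran from -0.31 (Ctsh) to 0.32 (Mcoln1), and the 95% confidence intervals of the 38 genes spanned -0.80 to 0.69, with a median half-width of 0.26. All 3 Q92 mice were above all 3 wild-type mice for Mcoln1 and Psap (6.5% of all genes) and below them for Ctsz, Hexa and Man2b1 (7.51% of all genes).

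**Figure D5:**
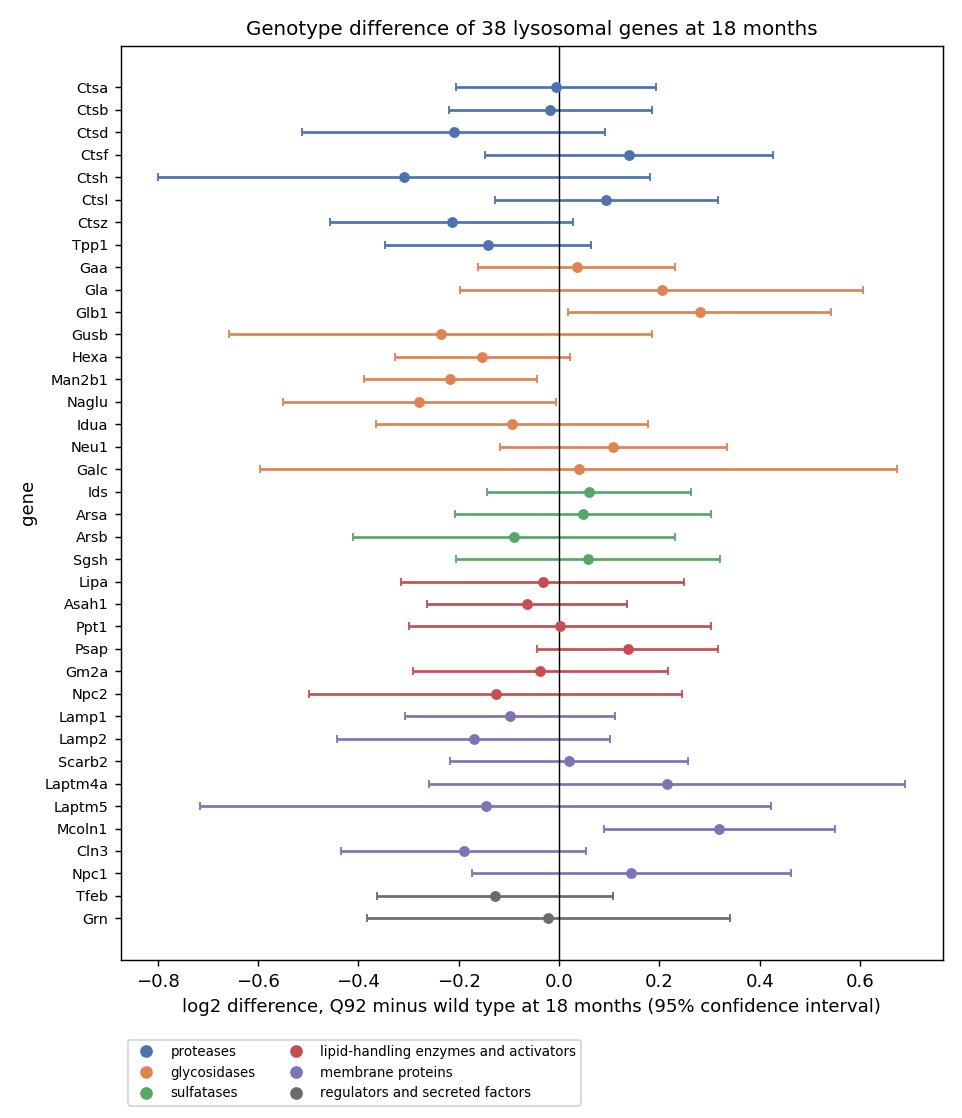
Difference between Q92 and wild-type mice at 18 months (log2) for each of the 38 lysosomal genes, grouped by role, with 95% confidence intervals from limma. The estimates lie between -0.31 and 0.32, and no gene passed after adjustment.

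Mcoln1, which encodes the calcium-releasing channel of lysosomes, read 7.59, 7.25 and 7.66 in wt_18m and 7.83, 7.86 and 7.77 in Q92_18m mice. At 3 months it read 7.54, 7.67 and 7.58 in wild-type and 7.53, 7.58 and 7.65 in Q92 mice, and the groups were mixed. The difference at 18 months was 0.32 (SE 0.11, 95% confidence interval 0.09 to 0.55, adjusted p = 0.444), and it was 0.20 without wt_18m_12, the lowest mouse. Its other probe sets differed by 0.43 and 0.04. The core element shown above stands in its promoter window, and in that of Naglu, whose estimate was negative. At 18 months 5 of the 10 members with the core were higher in Q92 mice (median 0.02). Of the 24 measured members whose windows lack it, 10 were higher (median -0.03). The part of the element in these differences was not tested.

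Of the other members with the smallest p, 3 had negative estimates and Glb1 a positive one. Man2b1 was lower in old Q92 than in old wild-type mice (log2 difference -0.22, SE 0.08, adjusted p = 0.509, and -0.14 with its probe sets averaged), as was Ctsz (-0.21, SE 0.11, adjusted p = 0.685). For Naglu the difference was -0.28 (adjusted p = 0.624), or -0.14 without Q92_18m_25, and for Glb1 it was 0.28 (SE 0.12, adjusted p = 0.604). The comparisons of age in wild type and of genotype at 18 months share the old wild-type arrays, so a high value there raises the first and lowers the second. At this age 2 of the 13 microglial markers were higher in Q92 mice, with a median of -0.29. All 10 astrocyte markers were lower in Q92 mice (median -0.23), as were all 9 projection neuron markers (median -0.96, 1 passed). The part of these markers in the lysosomal differences was not tested. Tfeb itself differed by -0.13 (adjusted p = 0.847).

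The spread of the members' mean between mice of a group was 0.073. Of the old Q92 mice left out singly, only Q92_18m_66 moved the median difference of the 38 genes at 18 months (-0.03) further than that. The median was -0.10 without Q92_18m_66, 0.023 without Q92_18m_11 and 0.00 without Q92_18m_25. The lysosomal mean of Q92_18m_66, 8.26, stood above the 8.03 and 8.04 of the other Q92 mice of that age. The old Q92 mice also included the youngest of the 18-month mice, at 567 days. With age in days as a block the median was -0.17. That fit compared Q92_18m_11 alone with wt_18m_12 and wt_18m_17, the old mice of the same age in days. It therefore cannot separate genotype from this single mouse.

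At 3 months none of the 38 genes passed (0.0165% of all genes and 0.0111% of all probe sets did), and none had an unadjusted p under 0.05, which 2.27% of all genes had. Here 26 genes were higher in Q92 mice and 12 lower, with a median of 0.06 against -0.02 over all genes. The differences ran from -0.14 (Neu1) to 0.35 (Galc), and every adjusted p was 1.00. Ctsl and Naglu had all Q92 mice above all wild-type mice (2.3% of all genes), and Ctsf and Neu1 had them below (4.34%). For Ctsl the difference was 0.14 (0.08 without Q92_3m_439), for Neu1 it was -0.14 (-0.07 without the same mouse), for Naglu 0.16 and for Hexa 0.11. Arsb, an arylsulfatase of dermatan sulfate, read 9.33, 8.93 and 9.40 in wt_3m and 9.40, 9.41 and 9.46 in Q92_3m mice, a difference of 0.20 that was 0.05 without wt_3m_438.

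Whether the knock-in difference changed between the ages was tested as the difference of differences, which is also the difference between the age effects of the 2 genotypes. None of the 38 genes passed, as did 0% of all genes, and 5 had an unadjusted p under 0.05, where 5.8% of all genes did. The median change was -0.08 (0.02 over all genes), and -0.16 without Q92_18m_66. The lowest adjusted p was 0.946. The change was -0.44 for Naglu (SE 0.18), -0.28 for Man2b1 (SE 0.11) and -0.26 for Hexa (SE 0.11), and it was 0.41 for Glb1 (SE 0.17) and 0.33 for Mcoln1 (SE 0.15, and 0.21 without wt_18m_12). The age differences that separated wild-type mice more often than Q92 mice were therefore not shown to differ between the genotypes.

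Beyond the members, 62 other lysosomal genes were measured, and none passed in the 5 comparisons or over both genotypes. At 18 months 32 were higher in Q92 mice (median 0.00) and 9 (14.5%) had an unadjusted p under 0.05, against 8.03% of all genes, and at 3 months 28 were higher (median -0.01). With age, 43 were higher in wild type (median 0.08) and 50 in Q92 mice (median 0.10), and 53 over both genotypes (median 0.10).

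The 16 V-ATPase genes, whose products acidify the lysosome, are set beside the members here without a test between the lists. At 18 months 14 of the 16 were higher in Q92 than in wild-type mice (median 0.10) and 6 had all Q92 mice above all wild-type mice. Of the 62 other lysosomal genes, which include these 16, 32 were higher and 9 had all Q92 mice above. Of the 16 other hydrolases, 7 were higher and 1 had all Q92 mice above. Among all genes 49.6% were higher (median -0.00) and 6.5% had all Q92 mice above. At 3 months 2 of 16 were higher (median -0.04), against 42.6% of all genes (median -0.02). Their mean was 10.31 to 10.34 in the old Q92 mice, above the 10.18 to 10.25 of old wild-type mice and the 10.08 to 10.20 of all young mice. Atp6v1a, the catalytic subunit, had the smallest p among them at 18 months, with a difference of 0.45 (SE 0.11, adjusted p = 0.216), and -0.02 at 3 months. Its change between the ages was 0.47 (adjusted p = 0.938), and its age difference in Q92 mice 0.40 (adjusted p = 0.183). These genes are also used by synaptic vesicles and other acidic compartments, and none of the 16 passed on its own.

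In the other lists, 1 gene each had the smallest p. Among other hydrolases this was Ctss, the microglial cathepsin S, over both genotypes (0.90, adjusted p = 0.0632) and in wild type (1.25, adjusted p = 0.167), and Ctso at 18 months (-0.31, adjusted p = 0.538). Among other membrane proteins it was Cd68, a marker of phagocytic cells, with age in wild type (0.78, adjusted p = 0.139), Laptm4b in Q92 mice (0.53, adjusted p = 0.160), and the iron transporter Slc11a2 in old Q92 against old wild-type mice (-0.51, adjusted p = 0.262). Among sorting genes it was Igf2r, the large mannose 6-phosphate receptor. Igf2r differed by -0.30 with age in wild type (adjusted p = 0.267), by -0.20 over both genotypes (adjusted p = 0.148) and by 0.28 between old Q92 and old wild-type mice (adjusted p = 0.354). None of these differences passed the test.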

How the data were processed

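Striatal RNA of 12 mice was measured on 1-colour arrays, and each probe set has a deposited log2 signal (2.03 to 13.8), made by the authors with RMA in the affy package, per the submitters' processing notes. Versions, scan batches and whether all arrays were normalised together are not given in the sources used here. Arrays were assigned to groups by their labels. Of 45101 probe sets, 64 controls were left out. GEO's platform annotation paired 34945 probe sets with 1 gene, 932 with several and 9160 with none. Arrays have no read depth, and the 3 mice per group limit the precision (median SE 0.12 at 18 months).

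The values were used as deposited. A limma model (limma 3.58.1, R 4.3.3) with 1 mean per group was fitted to all 45037 probe sets, with Benjamini-Hochberg adjustment per comparison and a threshold of 0.05. It was tested on simulated data with independent noise and shifts larger than any difference between groups among the members. That test does not show how the model performs at the members' sizes. Residual degrees of freedom were 8, and the prior added 4.50. A gene was represented by its brightest probe set paired with it alone. The 38 members had 92 probe sets, with 28 of them having several. All 38 lay above the 40th percentile of mean signal over all probe sets (4.27). Among the brightest probe sets of all genes, Naglu, Gla and Gusb were the dimmest members, at percentiles 37.6, 37.7 and 39.9. The comparisons were Q92 against wild type at each age, the change of that difference, and 18 against 3 months within each genotype. The comparison over both genotypes was added after the data had been seen.

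Every member could be named. Values in every array were given for those called and, where fewer than 5 were called, mainly for the 5 with the smallest p. Of each other lysosomal list, the gene with the smallest p was eligible. The members and lists were chosen with earlier results of these data known. The share of genes called in a comparison is given as background. No list was tested as a set.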

Additional observations from a re-analysis of the deposited data

How the results depend on the processing

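With 3 mice a group, only large differences could pass. Alternatives were quantile normalisation, a common median, a filter at the 40th percentile, array weights, a robust prior with an intensity trend, sex, 18S signal or age in days in the model, fits to the compared arrays only, other rules for probe sets, and leaving out mice. Leaving out wt_18m_17 and Q92_18m_66 together was added after the data had been seen. The log2(value + 1) alternative was not run, since the values are log2 already.

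For the knock-in difference at 18 months, at 3 months and its change, and for age in Q92 mice, 0 members passed in every alternative run. For age in wild type, the count of 0 became 1 with an intensity trend and robust prior (Ctsz, adjusted p = 0.0341), 1 with 1 probe set per gene (Ctsz, adjusted p = 0.0331) and 2 with array weights (Ctsz, adjusted p = 0.0326, and Man2b1, adjusted p = 0.0485). Over both genotypes, the count of 2 became 1 with quantile normalisation, with sex as a covariate, with 18S as a covariate, and with either pair of mice left out, and it was 1 to 2 with single mice left out. It became 3 in 6 alternatives. Lamp2 gained a call in 7 of 23 alternatives (lowest adjusted p = 0.0310) and Gusb in 1, the mean of all probe sets (adjusted p = 0.0272). Ctsz passed in all 23 alternatives (adjusted p = 0.00458 to 0.0417). Man2b1 lost its call in 17 of 23, with adjusted p-values of up to 0.229.

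The members' median at 18 months, -0.03, was -0.17 with age in days as a block, which compared Q92_18m_11 with wt_18m_12 and wt_18m_17 only. It was -0.10 to 0.023 with single mice left out, -0.10 without wt_3m_467 and Q92_18m_66, and -0.11 without wt_18m_17 and Q92_18m_66. The median change between ages, -0.08, was -0.16 to -0.043 with single mice left out. Of 600 alternative values for single members, 571 kept direction and side of the threshold, 17 lost a call, 12 gained one and 0 reversed a called direction. The cause was not tested.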
